A study of Mus musculus with 18 samples.

Results

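The 8 genes described here store, sense or move zinc, and were followed through the knockdown of Smndc1 in alphaTC1 cells: the metallothioneins Mt1, Mt2 and Mt3, the zinc-sensing factor Mtf1, and the zinc transporters Slc30a1, Slc30a5, Slc30a7 and Slc30a8. They were chosen by symbol from the count tables, with earlier results of these data known, and are 8 of the 55487 genes listed there. Each of the 8 had enough reads to be tested in every comparison. AlphaTC1 is a mouse line derived from pancreatic alpha cell tumours, and Smndc1 encodes a splicing factor. The 18 libraries come from 2 experiments. In experiment 1, cells received an Smndc1 shRNA (shSmndc1, 3 libraries) or an empty vector (EV, 3 libraries) and were collected 5 days later. In experiment 2, all cells also carried RIP-mCherry, a red reporter under the rat insulin promoter. Cells with the shRNA were sorted into reporter-positive (shSmndc1_RIP_pos, 4 libraries) and reporter-negative (shSmndc1_RIP_neg, 4 libraries) populations, and cells with the empty vector formed the control (EV_RIP, 4 libraries). The labels name 1 cell line and an Smndc1 shRNA without its sequence. Neither the time of collection in experiment 2 nor any sorting of EV_RIP cells is stated, so the knockdown and the sort cannot be told apart there.

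Zinc in the cytosol is held at very low free levels. Metallothioneins bind surplus zinc and copper through clusters of cysteines, and MTF1, a zinc-finger protein that senses free zinc, switches on Mt1, Mt2 and Slc30a1 when zinc rises. Exporters of the SLC30 (ZnT) family move zinc out of the cytosol: ZnT1, encoded by Slc30a1, across the cell membrane, ZnT5 and ZnT7, encoded by Slc30a5 and Slc30a7, into the Golgi and early secretory pathway, and ZnT8, encoded by Slc30a8, into the secretory granules of islet cells. In beta cells ZnT8 supplies the zinc with which insulin crystallises, and alpha cells carry it as well. Metallothioneins are also induced by heavy metals, oxidative stress and glucocorticoids.

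The 3 metallothionein genes lie in a row on the plus strand of mouse chromosome 8 (GRCm38), Mt3 at chr8:94152607-94154146, Mt2 at chr8:94172664-94173568 and Mt1 at chr8:94179082-94180327. Mtf1 lies at chr4:124802104-124849800, Slc30a1 at chr1:191906767-191913247 and Slc30a8 at chr15:52295553-52335798, all on the plus strand. Slc30a5, at chr13:100802648-100833427, and Slc30a7, at chr3:115938973-116007406, are on the minus strand. All 8 are annotated as protein-coding.

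MTF1 binds metal response elements, whose core is TGCACNC or TGCGCNC. Promoter windows of 300 bases (250 before and 50 after the RefSeq start, GRCm38.p6) were found for 7 of the 8 genes, all but Slc30a8, and were searched for this core on both strands. Windows of Mt1, Mt2 and Slc30a1 are shown because these are the textbook MTF1 targets among the 8. Both metallothioneins were higher in the libraries labelled with the shRNA in both experiments, while Slc30a1 did not pass a test. Capitals mark the metal response cores in the 3 sequences below, each read 5′ to 3′ on the plus strand, at chr8:94178839-94179138, chr8:94172368-94172667 and chr1:191906531-191906830.
Mt1: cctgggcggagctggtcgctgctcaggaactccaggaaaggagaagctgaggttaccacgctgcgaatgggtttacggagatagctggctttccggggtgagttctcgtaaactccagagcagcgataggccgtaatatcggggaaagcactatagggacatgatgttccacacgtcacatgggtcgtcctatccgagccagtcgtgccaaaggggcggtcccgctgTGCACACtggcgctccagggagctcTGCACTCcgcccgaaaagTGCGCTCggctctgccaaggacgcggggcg
Mt2: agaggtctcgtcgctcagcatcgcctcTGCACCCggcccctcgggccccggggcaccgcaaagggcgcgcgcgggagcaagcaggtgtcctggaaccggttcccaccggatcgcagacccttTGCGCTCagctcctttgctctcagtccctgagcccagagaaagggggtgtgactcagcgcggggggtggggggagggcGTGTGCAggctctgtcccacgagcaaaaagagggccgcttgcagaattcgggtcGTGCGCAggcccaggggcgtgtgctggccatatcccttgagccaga
Slc30a1: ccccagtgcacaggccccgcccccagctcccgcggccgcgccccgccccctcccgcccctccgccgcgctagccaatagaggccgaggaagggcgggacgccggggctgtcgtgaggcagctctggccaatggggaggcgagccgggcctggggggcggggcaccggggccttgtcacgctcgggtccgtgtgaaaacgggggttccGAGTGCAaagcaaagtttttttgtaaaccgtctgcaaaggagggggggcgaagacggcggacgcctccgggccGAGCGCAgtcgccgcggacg

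In the Mt1 window 3 cores lie at −23, +3 and +21 from the RefSeq start. The GENCODE annotation adds Mt1 transcripts that start 122 and 152 bases further downstream, and all 3 cores are upstream of these. Both GENCODE Mt2 transcripts start downstream of the RefSeq start, by 46 and 242 bases, and so beyond all cores of the Mt2 window. This window has 4 cores, at −223, −128, −50 and +5, with the last 2 on the opposite strand. It also holds TGACTCAGC at −79, a match to TGACNNNGC, the core of the antioxidant response element. Slc30a1 has cores at −43 and +31, both on the opposite strand, and an antioxidant core at −82. Of the others, Mt3 and Slc30a5 hold 1 metal response core each, Slc30a5 with an antioxidant core as well, and no match was found in the windows of Mtf1 and Slc30a7. Among all 32851 promoter windows of this length, 25.7% hold at least 1 metal response core, 7.11% at least 2, 1.97% at least 3 and 0.517% at least 4, and 12.4% hold the antioxidant core. A match describes the letters in the window and does not show binding, and no match says only that these letters are not in this window.

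Total counts per library were 37233208 to 66676008 in shSmndc1, 40781919 to 53455167 in EV, 34045268 to 48138634 in positive cells and 49345067 to 103048766 in EV_RIP. Negative libraries 1 to 4 were uneven, at 38869563, 80757285, 8084574 and 23744051 counts. A level in CPM is a count scaled to a library size of 1000000. Log2 fold changes set a group labelled with the shRNA over its empty vector, and a gene was called higher or lower at a Benjamini-Hochberg adjusted p under 0.05. Whether groups overlap is given only as a description, and how many of all genes separate in the same way was not counted. In shSmndc1, 5923 of 18202 genes had an unadjusted p under 0.05 by edgeR. The non-polyadenylated RNA Rn7sk stood at 4.53, 18.6, 161 and 45.4 CPM in negative libraries 1 to 4, at 2.44 to 4.68 CPM in positive libraries and at 5.24 to 14.2 CPM in EV_RIP. The 7 alpha cell markers, among them the glucagon gene Gcg, were detected in every group. Smndc1 itself had 10.4, 9.52 and 10.5 CPM in shSmndc1, against 41.9, 40.2 and 35.1 CPM in EV (log2 fold change −1.94, SE 0.13, adjusted p = 0.00145, edgeR). In experiment 2 it stood at 20.1 ± 4.51 CPM in positive cells, 37.0 ± 9.51 CPM in the libraries labelled negative and 44.5 ± 7.88 CPM in EV_RIP (SD, n = 4 each). Positive cells were lower than EV_RIP (−1.15, SE 0.21, adjusted p = 0.00384 by edgeR's quasi-likelihood test), while the libraries labelled negative did not pass (−0.27, SE 0.20, adjusted p = 0.378). The level of Smndc1 therefore does not show a knockdown in them, and directions drawn from them are those of the libraries so labelled.

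Mt1, encoding a metallothionein found in most tissues, was higher in the libraries labelled with the shRNA in both experiments. It had 43.1, 48.0 and 37.2 CPM in the 3 shSmndc1 libraries, against 20.1, 20.8 and 17.1 CPM in the 3 EV libraries. All shSmndc1 libraries lay above all EV libraries, and the log2 fold change was 1.15 (SE 0.14, adjusted p = 0.00545, edgeR). In experiment 2, Mt1 had 34.2, 56.9, 49.4 and 50.1 CPM in positive libraries, 26.3, 62.3, 39.8 and 67.6 CPM in the libraries labelled negative, and 18.01, 24.3, 12.4 and 9.75 CPM in EV_RIP. Every library labelled with the shRNA was above every EV_RIP library, though negative library 1, at 26.3 CPM, lay close to the highest EV_RIP value. Here and for the genes below, how many of all genes separate in this way was not counted. Against EV_RIP, positive cells differed by 1.56 on the log2 scale (SE 0.31, adjusted p = 0.00588) and the libraries labelled negative by 1.61 (SE 0.31, adjusted p = 0.0116), by edgeR. Without negative library 4 that second adjusted p was 0.0512, and without negative libraries 3 and 4, the 2 with the highest Rn7sk, it was 0.163 (log2 fold change 1.45). In bulk RNA such as this, a higher level in each cell and a larger share of cells with the transcript cannot be told apart.

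Mt2, the second widely expressed metallothionein and the neighbour of Mt1, showed the largest fold changes of the 8 genes in all 3 comparisons with an empty vector. Its levels were 6.68, 7.24 and 5.86 CPM in shSmndc1, against 2.186, 2.41 and 1.60 CPM in EV. These groups did not overlap, with a log2 fold change of 1.67 (SE 0.22, adjusted p = 0.00611, edgeR). Positive libraries had 7.35, 5.99, 5.07 and 4.80 CPM, libraries labelled negative 5.81, 9.37, 10.1 and 13.3 CPM, and EV_RIP libraries 1.90, 1.94, 1.00 and 1.26 CPM. Again no library with the shRNA came down to the EV_RIP range. Positive cells differed from EV_RIP by 1.92 on the log2 scale (SE 0.28, adjusted p = 0.00164), and the libraries labelled negative by 2.65 (SE 0.28, adjusted p = 0.00120). The Mt2 call held by edgeR when any 1 library was left out of any of these 3 comparisons, at adjusted p-values of at most 0.0455. It was the 1 member still called when negative libraries 3 and 4 were left out together (2.30, adjusted p = 0.0334).

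Counts of Mt2 are small and shared with another annotated gene. They ran from 231 to 482 reads in shSmndc1 libraries, 70 to 124 in EV, 167 to 349 in positive, 84 to 791 in negative and 61 to 198 in EV_RIP libraries. Gm45774, an antisense gene on the opposite strand, covers 432 of the 588 exonic bases of Mt2, or 73.5%. Its count was 0.978 to 1.03 times that of Mt2 in all 18 libraries, as the plot of both counts shows. The kit marks strand, but the strand setting of the counting is not given in the sources used here, so reads of the pair cannot be told apart and the Mt2 values stand for both. Mt1 shares no exonic base with another gene.

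**Figure D1:**
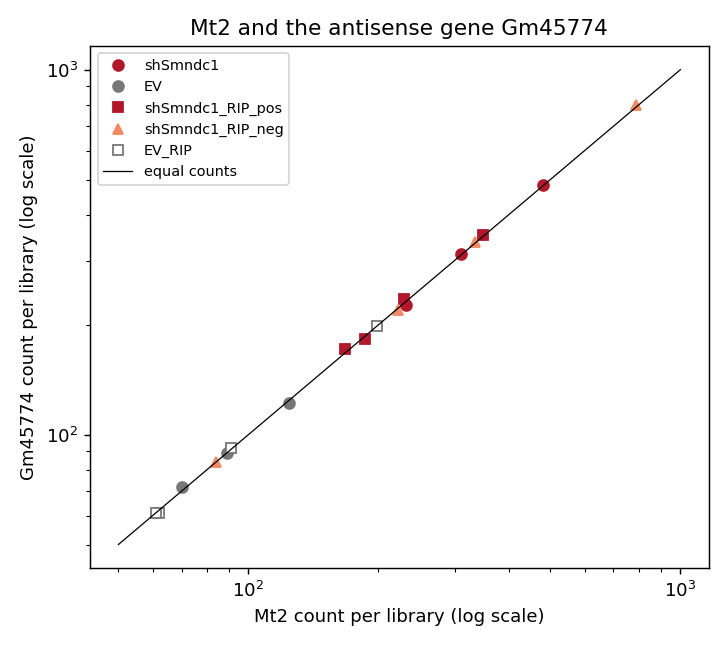
Read count of the antisense gene Gm45774 (vertical, log scale) against the read count of Mt2 (horizontal, log scale) in each of the 18 libraries, with symbols for the 5 groups and a line of equal counts. All libraries lie on or beside the line, at ratios of 0.978 to 1.03.

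The ratio of Mt1 to Mt2 was also compared between groups. FPKM values, which divide counts by gene length, allow levels of different genes to be set side by side. The annotated exonic bases of Mt1, 1246 over 3 merged transcripts, fill its whole span on the chromosome. A shorter length would raise its FPKM and its ratio to Mt2 alike in every library. Mt1 stood at 33.9 ± 4.56 FPKM in shSmndc1 and 15.4 ± 1.62 FPKM in EV (SD, n = 3 each), and Mt2 at 11.1 ± 1.27 and 3.50 ± 0.719 FPKM in the same groups. The ratio of Mt1 to Mt2 in FPKM was 3.00 to 3.13 in shSmndc1 libraries, against 4.06 to 5.03 in EV libraries, with no overlap. In experiment 2 the ratio was 2.20 to 4.93 in positive libraries, 1.86 to 3.14 in libraries labelled negative and 3.64 to 5.91 in EV_RIP. Only the libraries labelled negative lay wholly below EV_RIP, and positive libraries overlapped both. These ratios were not put to a test.

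Mt3, the metallothionein known from brain, was near the limit of detection. It had 0.280, 0.451 and 0.330 CPM in shSmndc1, against 0.442, 0.175 and 0.572 CPM in EV, which are 9 to 30 reads a library. Positive libraries held 0.569, 0.915, 0.954 and 0.489 CPM, libraries labelled negative 0.366, 0.462, 0.240 and 0.556 CPM, and EV_RIP libraries 0.563, 0.550, 0.421 and 0.124 CPM. Groups overlapped in every comparison, and no test was passed. At this depth the 95% interval of the log2 fold change in shSmndc1 ran from −1.22 to 0.95, and that in positive cells from −0.10 to 1.70.

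Mtf1, the zinc sensor itself, was higher in all 3 comparisons with an empty vector, with smaller fold changes than Mt1 and Mt2. It had 69.4, 80.3 and 72.1 CPM in shSmndc1, against 53.2, 38.3 and 37.6 CPM in EV, with no overlap (log2 fold change 0.78, SE 0.15, adjusted p = 0.0164, edgeR). EV library 1 stood above the other two EV libraries. Positive libraries had 53.2, 60.5, 55.0 and 59.7 CPM, libraries labelled negative 46.0, 65.2, 70.2 and 70.7 CPM, and EV_RIP 35.8, 42.7, 37.9 and 44.2 CPM. No EV_RIP library reached the lowest library of either sorted group. Against EV_RIP the difference was 0.51 in positive cells (SE 0.13, adjusted p = 0.0210) and 0.65 in the libraries labelled negative (SE 0.13, adjusted p = 0.0136). The call was lost in shSmndc1 without EV library 2 or 3 or shSmndc1 library 2 (adjusted p up to 0.0899). In positive cells it was lost without EV_RIP library 1 or 3 or positive library 2 or 4 (up to 0.0626), and in the libraries labelled negative without negative library 4 (0.0584). Its log2 fold change kept its sign and stayed between 0.47 and 0.95 in the fits with 1 library left out. Without negative libraries 3 and 4 together it was 0.46 in the libraries labelled negative (adjusted p = 0.230, edgeR). The gene 1110065P20Rik, on the opposite strand, covers 8.095% of the exonic bases of Mtf1 and was not called in any comparison.

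**Figure D2:**
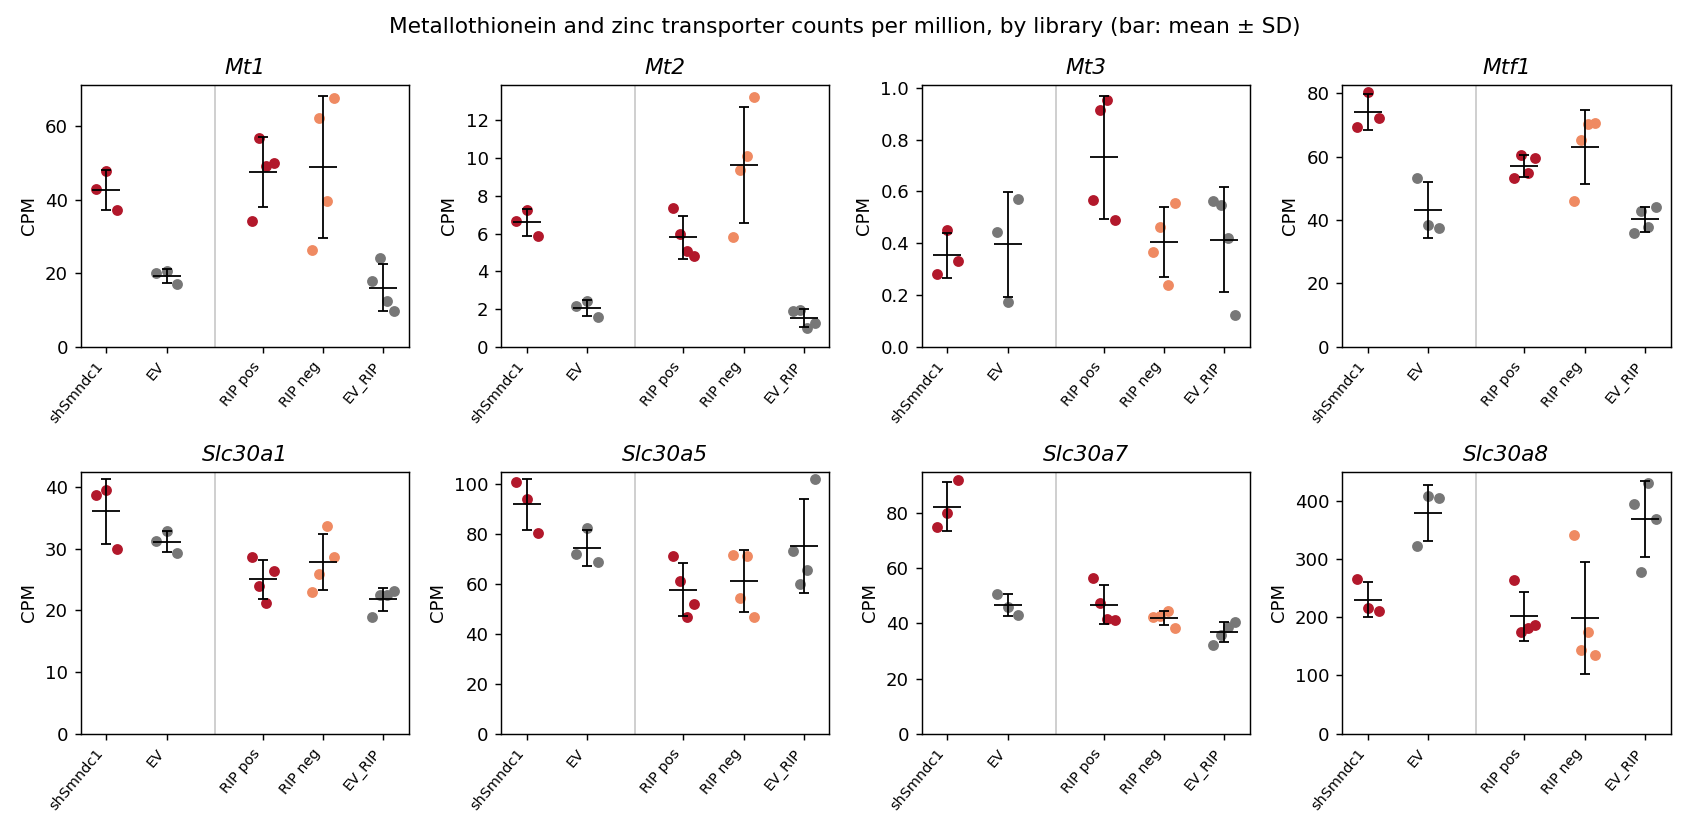
CPM (linear axis from 0) of the 8 genes in every library, with the mean and SD of each group as a bar. RIP pos and RIP neg are shSmndc1_RIP_pos and shSmndc1_RIP_neg, and the grey line separates the 2 experiments, which were scaled separately. Mt1, Mt2 and Mtf1 lie above the empty vector without overlap in shSmndc1, in positive cells and in the libraries labelled negative, while Slc30a8 lies below it with 1 negative library, at 342 CPM, inside the EV_RIP range. How many of all genes separate in this way was not counted.

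Slc30a8, whose product ZnT8 loads secretory granules with zinc, was the member with the highest level per length in every library and the 1 member that was lower. It had 265, 215 and 211 CPM in shSmndc1, against 323, 408 and 405 CPM in EV. The groups did not overlap, and the log2 fold change was −0.72 (SE 0.15, adjusted p = 0.0192, edgeR). Positive libraries had 265, 175, 182 and 186 CPM, libraries labelled negative 342, 144, 175 and 135 CPM, and EV_RIP libraries 395, 278, 431 and 369 CPM. All positive libraries lay below all EV_RIP libraries, but negative library 1 lay within their range. On the log2 scale positive cells differed from EV_RIP by −0.87 (SE 0.25, adjusted p = 0.0327) and the libraries labelled negative by −0.89 (SE 0.25, adjusted p = 0.0352).

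The Slc30a8 calls were lost in many fits with 1 library left out, while the sign was kept. Calls over all genes fell in each of those fits too. Without EV library 3 they went from 1315 higher and 1366 lower to 71 and 110 in shSmndc1. Without negative library 4 they went from 1544 and 1076 to 127 and 32 in the libraries labelled negative. In shSmndc1 the call was lost without EV library 2 or 3 or shSmndc1 library 2 (adjusted p up to 0.0930, edgeR). In experiment 2 it passed in 2 of 8 fits with 1 library left out for positive cells, and likewise in 2 of 8 for the libraries labelled negative. Without EV_RIP library 1, 3 or 4 or positive library 2, 3 or 4 the adjusted p for positive cells rose to at most 0.0959. Without EV_RIP library 1, 3 or 4 or negative library 2, 3 or 4 that for the libraries labelled negative rose to at most 0.123. Over these fits the log2 fold change lay between −0.83 and −0.66 in shSmndc1, between −1.03 and −0.78 in positive cells and between −1.29 and −0.75 in the libraries labelled negative. Without negative libraries 3 and 4 together it was −0.61 in the libraries labelled negative (adjusted p = 0.366, edgeR).

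Slc30a7, encoding the Golgi transporter ZnT7, was higher in shSmndc1. It had 74.9, 80.2 and 92.1 CPM there, against 50.8, 46.1 and 43.2 CPM in EV, with no overlap (log2 fold change 0.82, SE 0.12, adjusted p = 0.00825, edgeR). Leaving out EV library 3 took the adjusted p to 0.0584. Positive libraries had 56.6, 47.4, 41.8 and 41.3 CPM, libraries labelled negative 42.4, 42.7, 44.5 and 38.3 CPM, and EV_RIP 32.3, 36.0, 38.8 and 40.4 CPM. Positive libraries all stood just above EV_RIP, and the libraries labelled negative overlapped it. In positive cells the difference of 0.34 from EV_RIP (SE 0.12) missed the threshold in edgeR, at an adjusted p of 0.0597, and passed in DESeq2, at 0.0286. In the libraries labelled negative it was 0.19 (SE 0.12, adjusted p = 0.291). The pseudogenes Gm6649 and Gm43106, on the opposite strand, cover 10.5% and 5.73% of the exonic bases of Slc30a7 and were both called higher in shSmndc1, so its counts are uncertain to that extent.

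Slc30a5, encoding the early secretory pathway transporter ZnT5, passed no test. It had 101, 94.2 and 80.6 CPM in shSmndc1, against 72.1, 82.4 and 68.8 CPM in EV, with shSmndc1 library 3 inside the EV range (log2 fold change 0.30, adjusted p = 0.139, edgeR). Without that library the adjusted p was 0.0401. Positive libraries had 71.0, 61.1, 46.8 and 52.0 CPM, libraries labelled negative 71.7, 54.5, 71.3 and 46.9 CPM, and EV_RIP 73.2, 59.9, 65.5 and 102 CPM. The groups overlapped, with fitted differences below 0 in both sorted groups (−0.38 and −0.30 in positive and negative libraries against EV_RIP).

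Slc30a1, whose product ZnT1 exports zinc from the cell and which MTF1 induces, also passed no test. It had 38.8, 39.5 and 30.0 CPM in shSmndc1, against 31.3, 32.8 and 29.4 CPM in EV (log2 fold change 0.21, 95% interval −0.10 to 0.52, adjusted p = 0.317, edgeR). Positive libraries had 28.6, 23.9, 21.2 and 26.5 CPM, libraries labelled negative 23.1, 25.9, 33.8 and 28.6 CPM, and EV_RIP 18.9, 22.6, 22.5 and 23.2 CPM. Every group pair overlapped. Against EV_RIP it differed by 0.20 (adjusted p = 0.316) in positive cells and by 0.35 (adjusted p = 0.0992) in the libraries labelled negative, where it passed without negative library 1 (0.0314). The upper ends of the 95% intervals were 0.50 and 0.64, below the lower ends for Mt2 in the same comparisons (1.33 and 2.04). The Slc30a1 intervals overlapped those of Mtf1 there (0.22 to 0.79 and 0.36 to 0.93). A difference in fold change between genes was not tested. The antisense gene 1700034H15Rik covers 8.92% of the exonic bases of Slc30a1 and was called higher in both sorted groups.

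**Figure D3:**
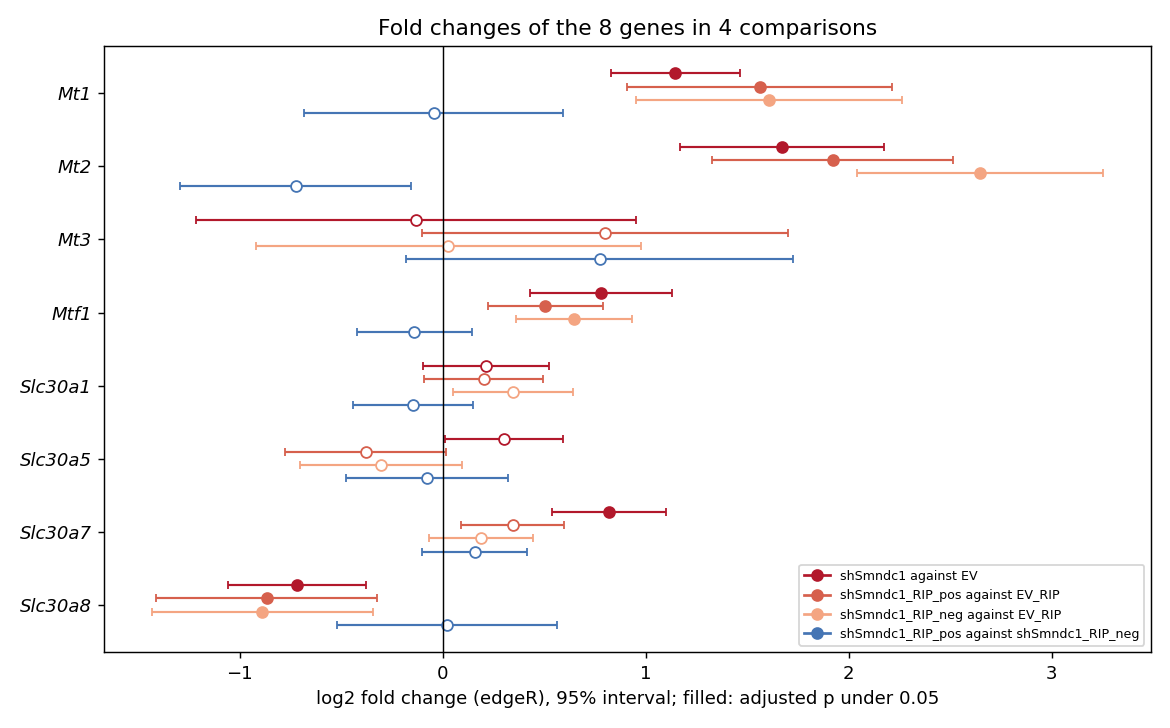
Log2 fold change by edgeR (horizontal) of the 8 genes (down the page) in 4 comparisons, with 95% intervals. Filled points have an adjusted p under 0.05, and the 8 blue points, positive against negative cells, are all open, as are those of Mt3, Slc30a1 and Slc30a5 in every comparison.

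In FPKM, the order of the 8 genes in EV libraries ran from Slc30a8 at 191 ± 25.3, through Slc30a5 at 23.3 ± 2.35 and Mt1 at 15.4 ± 1.62, to Mt3 at 0.369 ± 0.188 (SD, n = 3). Between them, Slc30a1 at 5.91 ± 0.354, Mtf1 at 5.37 ± 1.07 and Slc30a7 at 5.15 ± 0.409 overlapped in range and Mt2 stood lower, at 3.50 ± 0.719. In shSmndc1, Mt1 at 33.9 ± 4.56 overlapped Slc30a5 at 28.5 ± 3.48, and Mt2, at 11.1 ± 1.27, overlapped Mtf1 and Slc30a7. Slc30a8 made up 72.1% ± 1.78 of the summed FPKM of the 4 transporters in shSmndc1, against 84.7% ± 1.91 in EV (SD, n = 3 each). The same share was 78.3% ± 2.10 in positive cells, 75.9% ± 5.76 in the libraries labelled negative and 85.3% ± 2.82 in EV_RIP (SD, n = 4 each). Taking Mt1 as the standard, the gene lengths behind the FPKM equal the annotated exonic bases for Mt2, Mt3, Slc30a1 and Slc30a8. They are shorter for Mtf1 (7975 against 8907), Slc30a7 (9020 against 11116) and Slc30a5 (3179 against 7294), and a shorter length gives a higher FPKM. The order of some neighbours depends on this, and the place of Mt1 depends on its own length. With annotated lengths, Slc30a5 came to 12.4 ± 1.52 in shSmndc1 and 10.2 ± 1.02 in EV (SD, n = 3 each), below Mt1 in both groups with no overlap, and in shSmndc1 Mt2 overlapped Slc30a5 but lay above Mtf1 and Slc30a7. In EV, Slc30a7, at 4.18 ± 0.332, then overlapped Mtf1 and Mt2 but not Slc30a1. Slc30a8 was the highest on either length, and its share of the 4 transporters was 81.2% ± 1.496 in shSmndc1, against 90.3% ± 1.34 in EV (SD, n = 3 each).

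Counted together, 4 of the 8 genes were called higher and 1 lower in shSmndc1, against a background in which 14.7% of the 18202 genes tested were called in either direction, 7.22% higher and 7.5% lower. In positive cells 3 were higher and 1 lower, where 17.4% of 18897 genes were called, 8.47% higher and 8.92% lower. In the libraries labelled negative 3 were higher and 1 lower, where 13.9% were called, 8.17% higher and 5.69% lower. The median log2 fold change of the 8 genes was 0.54 in shSmndc1, 0.43 in positive cells and 0.27 in the libraries labelled negative, and that of all genes tested was −0.0029, 0.0011 and −0.0090 in the same comparisons. Both comparisons of experiment 2 share the EV_RIP libraries, so their like results are not separate evidence. The 8 genes were chosen with earlier results of these data known. Their counts and medians beside the background are therefore a description, not a test of the set.

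No member passed the test between positive and negative cells. None of the 8 genes was called, and the background was 0% of 18897 genes by edgeR, with 2314 genes at an unadjusted p under 0.05 and 107 higher and 205 lower by DESeq2. Mt2 came nearest, at a log2 fold change of −0.72 (95% interval −1.29 to −0.15, adjusted p = 0.316), and it was lower in the positive than in the same-numbered negative library in 3 of 4 pairs. For Mt1 the interval was −0.68 to 0.59, for Mtf1 −0.42 to 0.14 and for Slc30a8 −0.52 to 0.56. Same-numbered positive and negative libraries deviated together, though pair 3 (correlation 0.224) less than negative library 2 with positive library 4 (0.400). In a fit of these 8 libraries with the replicate number as a block, added after the data were seen, 667 genes were higher and 850 lower in positive cells, with none of the 8 members among them and Mt2 at −0.67 (adjusted p = 0.0790). Smndc1 itself was lower in positive cells in that fit (−0.86, adjusted p = 9.54e-04). It was not called by the main edgeR test, and with 1 library left out it passed in 1 of 8 fits. It did pass in DESeq2 (−0.88, adjusted p = 0.00841). By edgeR it also passed with the block over 12 libraries (adjusted p = 0.0346) and without the filter on low counts (adjusted p = 0.0158).

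The effect in positive cells was then set against that in unsorted shSmndc1 cells, each relative to its own empty vector, in 1 fit over 18 libraries. None of the 8 was called, and the background was 0% of 20036 genes by edgeR, with 861 genes at an unadjusted p under 0.05 and 4 higher and 1 lower by DESeq2. Slc30a5 differed by −0.70 (95% interval −1.25 to −0.14) and Slc30a7 by −0.49 (−0.85 to −0.12) on the log2 scale, both with an adjusted p of 0.998. The intervals of Mt1 (−0.44 to 1.25) and Mt2 (−0.55 to 1.03) leave differences of either sign.

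Other genes of metal handling were taken from lists, which were chosen with earlier results of these data known. The counts of this and the later lists stand against a background of all genes tested. Of these, 14.7% were called in either direction in shSmndc1, 17.4% in positive cells and 13.9% in the libraries labelled negative. Of 7 other zinc exporters, 4 were tested in shSmndc1 and none was called, with 1 at an unadjusted p under 0.05. In the libraries labelled negative, 1 of 5 tested was called, Tmem163, encoding a zinc exporter of vesicle membranes, at 135 ± 35.9 CPM against 204 ± 17.0 CPM in EV_RIP (SD, n = 4 each, log2 fold change −0.60, adjusted p = 0.0265 by edgeR). That call held in 3 of 8 fits with 1 library left out. Tmem163 stood at −0.47 in positive cells, where none of 5 was called and 2 had an unadjusted p under 0.05. The median log2 fold change of the tested exporters was −0.18, −0.18 and −0.14 in shSmndc1, positive and negative libraries against their empty vectors.

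Among the zinc importers of the SLC39 (ZIP) family, 11 of 14 were tested. They included 1 called higher and 1 lower in shSmndc1, 0 and 3 in positive cells, and 2 and 1 in the libraries labelled negative. Slc39a1, encoding ZIP1 of the cell membrane, was lower in all 3 comparisons. It had 25.5 ± 7.80 CPM in shSmndc1 and 45.8 ± 2.07 CPM in EV (SD, n = 3 each), a log2 fold change of −0.84 (adjusted p = 0.0332, edgeR), and it was −0.58 in positive cells (adjusted p = 0.0279) and −0.53 in the libraries labelled negative (adjusted p = 0.0447). With 1 library left out, these calls held in 2 of 6, 4 of 8 and 2 of 8 fits. Slc39a13, encoding ZIP13 of the secretory pathway, was higher in shSmndc1 (0.49, adjusted p = 0.0288), in 2 of 6 such fits as well. In positive cells Slc39a3 (−0.52) and Slc39a11 (−0.43) were the other 2 of 3 lower importers, in 3 of 8 and 2 of 8 such fits as well, and none was higher. The Slc39a11 call was also lost with DESeq2 size factors (adjusted p = 0.0508, edgeR). In the libraries labelled negative Slc39a7, whose product releases zinc from the endoplasmic reticulum, was higher (0.48, adjusted p = 0.0241, held in 3 of 8 such fits), a call lost without the filter on low counts (0.42, adjusted p = 0.0644). Slc39a4, the importer known from gut, was the second one higher there, at 0.445, 3.91, 3.61 and 6.55 CPM in negative libraries 1 to 4, against 0.125, 0.520, 0.502 and 0.145 CPM in EV_RIP (3.41, SE 0.72, adjusted p = 0.0142). Negative library 1 lay within the EV_RIP range and the other three far above it, and the call was lost in 1 of 8 fits with 1 library left out. The medians of the tested importers were 0.07, −0.19 and −0.06 in shSmndc1, positive and negative libraries.

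Both copper-exporting ATPases were higher in all 3 comparisons. Metallothioneins bind copper too, and Atp7a and Atp7b pump copper into the secretory pathway and out of the cell. Atp7b had 7.99 ± 1.07 CPM in shSmndc1 and 2.64 ± 0.0991 CPM in EV (SD, n = 3 each), a log2 fold change of 1.60 (SE 0.19, adjusted p = 0.00528, edgeR) beside 1.67 for Mt2. In experiment 2 it had 4.52 ± 0.471 CPM in positive cells, 4.89 ± 0.750 CPM in the libraries labelled negative and 2.54 ± 0.428 CPM in EV_RIP (SD, n = 4 each), with log2 fold changes of 0.83 (adjusted p = 0.0119) and 0.94 (adjusted p = 0.0136). Atp7a was higher by 1.09, 0.76 and 0.81 on the log2 scale in shSmndc1, positive and negative libraries. The Atp7b calls held with any 1 library left out, while those of Atp7a held in 3 of 6, 8 of 8 and 6 of 8 such fits. Of the 11 copper genes tested, Slc31a1, encoding the copper importer CTR1, was the third one higher in shSmndc1 (0.48, adjusted p = 0.0389, held in 2 of 6 fits), none was lower in any of the 3 comparisons, and the list medians were −0.10, −0.14 and −0.06.

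**Figure D4:**
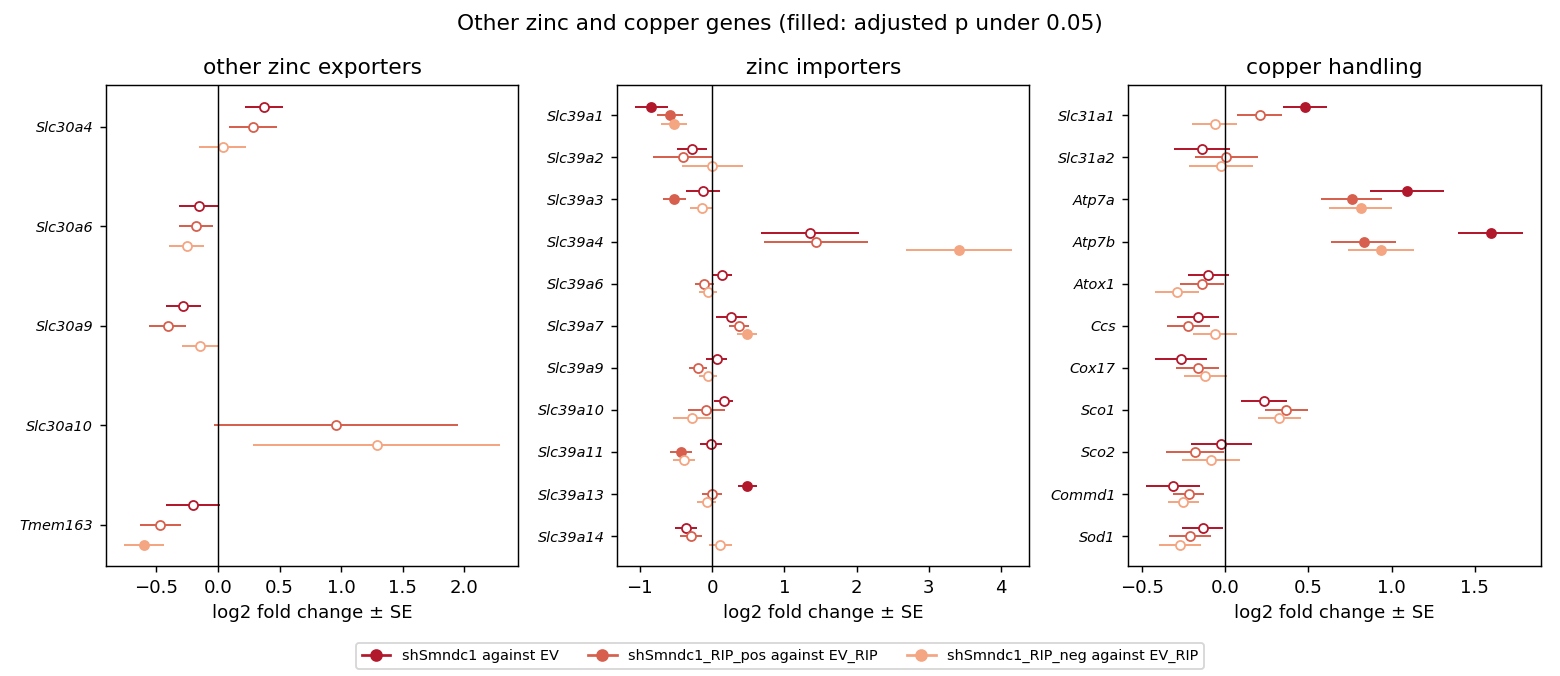
Log2 fold change with SE by edgeR (horizontal) of the tested genes of 3 lists (panels: other zinc exporters, zinc importers, copper handling) in 3 comparisons, with filled points at an adjusted p under 0.05. Atp7a and Atp7b are filled to the right and Slc39a1 to the left in all 3 comparisons, and Slc30a10 was not tested in shSmndc1.

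Targets of the other known inducers of metallothioneins were taken from lists too, and their part in the metallothionein results was not tested. Over all genes tested, 14.7% were called in shSmndc1, 17.4% in positive cells and 13.9% in the libraries labelled negative. Of 8 tested genes of the NRF2 and oxidative stress list, 1 was lower in shSmndc1, G6pdx of the pentose phosphate pathway (−0.54, adjusted p = 0.02003, edgeR, held in 3 of 6 fits with 1 library left out), and none was higher. In positive cells Hmox1, encoding the haem-degrading enzyme, was higher at 398 ± 92.8 CPM against 130 ± 31.3 CPM in EV_RIP (SD, n = 4 each, 1.61, adjusted p = 0.00692), while G6pdx (−0.75) and Srxn1, encoding sulfiredoxin (−0.45), were lower. The Srxn1 call was lost in each of 8 fits with 1 library left out. The libraries labelled negative showed Hmox1 higher (1.65, adjusted p = 0.0124) and G6pdx lower (−0.62, adjusted p = 0.0124), each held in 7 of 8 such fits. In shSmndc1, Hmox1 had 109, 162 and 257 CPM, against 81.1, 32.9 and 134 CPM in EV, and the groups overlapped. Of 8 glucocorticoid-induced genes, 1 was lower in shSmndc1, the transcription factor Klf9 (−0.97, adjusted p = 0.00716), which was lower in positive cells too (−0.72, adjusted p = 0.00732). Per1, a clock gene, was higher in positive cells (0.62, adjusted p = 0.0306) and in the libraries labelled negative (0.83, adjusted p = 0.0151), held in 2 of 8 and 5 of 8 fits with 1 library left out. None of the list calls in the libraries labelled negative held without negative libraries 3 and 4 together, where 4 genes in all were called. The list medians were −0.30, −0.19 and −0.03 for NRF2 and 0.12, 0.12 and 0.05 for glucocorticoid genes in shSmndc1, positive and negative libraries.

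Markers of other cell types moved with some of these groups. The summed level of 4 endothelial markers was 1.43 to 3.76 CPM in positive cells, 2.12 to 5.89 CPM in the libraries labelled negative and 1.13 to 1.87 CPM in EV_RIP. For 4 leukocyte markers the sums were 20.2 to 24.5, 20.8 to 30.5 and 15.5 to 19.4 CPM, and for 5 fibroblast markers 11.5 to 17.1, 5.84 to 9.52 and 3.25 to 11.9 CPM, in the same groups. In experiment 1 the fibroblast sums were 6.85 to 11.4 CPM in shSmndc1 and 4.99 to 6.21 CPM in EV, the endothelial sums 1.34 to 1.88 CPM in shSmndc1 and 1.01 to 1.78 CPM in EV, and the leukocyte sums 23.5 to 27.9 CPM in shSmndc1 and 16.7 to 24.5 CPM in EV. Col3a1, a defining fibroblast collagen, was at 0 in every group but the positive cells, and the pan-leukocyte gene Ptprc was at 0 in shSmndc1. Of these markers, Esam was called higher in all 3 comparisons, Pdgfra and Csf1r in shSmndc1, Pdgfra and Col1a1 in positive cells, and Pecam1, Cd68 and Col1a1 in the libraries labelled negative, by edgeR. With 1 library left out, these calls held in as few as 1 of 8 fits (Cd68) or 1 of 6 (Csf1r) and as many as 8 of 8 (Pdgfra in positive cells). The Col1a1 call in the libraries labelled negative was lost without the filter on low counts (1.64, adjusted p = 0.0543).

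Markers of islet and acinar cells moved as well, with many at low levels. Of 4 beta cell markers tested in shSmndc1, the insulin gene Ins2 (log2 fold change 3.21, adjusted p = 0.00750) and the transcription factor gene Mafa (1.35, adjusted p = 0.0185) were called higher by edgeR and none lower, with a list median of 1.296. Positive cells were sorted by an insulin promoter reporter, so insulin is no independent measure there. In them 4 of 5 tested were higher, Ins1 (4.72), Ins2 (2.51), Iapp (2.23) and Mafa (1.09), with a list median of 2.23. In the libraries labelled negative none of 5 was called, and the median was 0.67. Ins2 averaged 2.74 ± 0.771 CPM in shSmndc1 and 0.286 ± 0.198 CPM in EV (SD, n = 3 each), and 10.1 ± 4.12 CPM in positive cells, 2.74 ± 1.62 CPM in the libraries labelled negative and 1.74 ± 1.27 CPM in EV_RIP (SD, n = 4 each). Ins1 and Ins2 are close copies, so the split of reads between them is uncertain. The summed level of all 8 beta cell markers was 48.9 to 54.7 CPM in shSmndc1 and 57.3 to 59.7 CPM in EV. It was 65.5 to 94.7 CPM in positive cells, 58.1 to 82.0 CPM in the libraries labelled negative and 55.8 to 77.5 CPM in EV_RIP. Pdx1, a defining beta cell factor, was at 0 in the libraries labelled negative, EV_RIP and EV, Ins1 in EV and Ucn3 in shSmndc1.

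Cel, a lipase of acinar cells, was higher in shSmndc1 at 0.678 ± 0.274 CPM, against 0.0533 ± 0.0397 CPM in EV (SD, n = 3 each, log2 fold change 3.66, adjusted p = 0.00880, edgeR), as 1 of 3 acinar and duct markers tested, and none of 3 was called in either sorted group. The sums of all 6 were 19.9 to 22.9 CPM in shSmndc1 and 16.7 to 21.3 CPM in EV, and 21.2 to 26.2 CPM in positive cells, 17.1 to 25.5 CPM in the libraries labelled negative and 17.9 to 23.5 CPM in EV_RIP. Ghrl, encoding ghrelin, was the 1 tested marker of delta, PP and epsilon cells. It was higher in the libraries labelled negative (1.24, adjusted p = 0.0246) and not called in shSmndc1 or positive cells. Among the alpha cell markers, Gcg was higher in positive cells (0.83), and Pcsk2, encoding a hormone-processing protease, was lower in all 3 comparisons (−0.94 in shSmndc1, −1.17 in positive cells and −0.96 in the libraries labelled negative). With 1 library left out, the Ins1, Ins2, Mafa, Gcg and Pcsk2 calls in positive cells held in 8 of 8 fits and Iapp in 3 of 8. In shSmndc1 Ins2 and Cel held in 5 of 6 and Mafa and Pcsk2 in 3 of 6, and in the libraries labelled negative Ghrl held in 4 of 8 and Pcsk2 in 6 of 8. None of the marker calls in the libraries labelled negative held without negative libraries 3 and 4 together. The part of these markers and of Rn7sk in the metallothionein and Slc30a8 results was not tested.

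Over the 12 libraries of experiment 2, the genes with levels most like those of Mt1, among 10294 candidates, were Nup50, Nub1, Surf6, Rhpn1 and Pxn, with Pearson's r of log2(CPM + 1) between 0.971 and 0.987. For Mt2 they were Sema6a, Slc12a4, Arrdc4, Tmem184b and Kmt2d (0.934 to 0.981). For Slc30a8 they were Fbp1, Myef2, Cc2d2a, Fer1l6 and Ncald (0.977 to 0.982). The 12 points share 3 groups and the depth and quality of each library, so this likeness is a description of these libraries.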

How the data were processed

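RNA of 18 libraries was measured as stranded mRNA-seq, per the labels' protocols. The authors deposited raw counts per Ensembl gene, with 1 table per experiment, and these whole numbers were used for all tests. They also deposited FPKM, which equal the counts divided by length and by the DESeq2 size factors (largest relative deviation 8.88e-16 over 14944 genes and 6.66e-16 over 12880 genes). FPKM served only to set levels of different genes side by side. The submitters' processing notes name STAR 2.7.5a, DESeq2 1.30.0, Picard 2.19.2 and the GRCm38/mm10 build. Which program counted the reads, and whether it used strand, is not given in the sources used here.

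Low genes were removed with filterByExpr and libraries scaled by TMM, and edgeR 4.0.16 in R 4.3.3 gave the quasi-likelihood tests (Benjamini-Hochberg over all genes tested, threshold 0.05). Experiment 1 made 1 fit of 6 libraries, experiment 2 another of 12, and the difference between experiments a further fit of 18. CPM are counts scaled to a TMM-scaled library size of 1000000, within each experiment. Values after ± are SD. SE is that of a log2 fold change, taken as its absolute value over the square root of the quasi-likelihood F. The 95% intervals are built from this SE. Nothing in the labels shows that replicates came from separate cultures, so p-values measure only the spread between these libraries, and that spread may be technical. Total counts of 8084574 to 103048766 set the precision. Reads carry no molecular identifiers. No 2 libraries held identical counts. The procedure was also run on simulated counts, with the same spread for every gene and no differences in library quality. That run does not measure how it fares on libraries as uneven as these.

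Same-numbered positive and negative libraries deviated together from their group means, at correlations across genes of 0.224 to 0.714 in 4 of 4 pairs. This is the sole basis for the pairing, and the other pairs of groups did not all do so. Differently numbered positive and negative libraries ran from −0.581 to 0.400 over 12 pairs. Same-numbered pair 3, at 0.224, lay inside that range. Alternatives were DESeq2 1.42.0, its size factors, no filter, the replicate block, each library left out in turn, and negative libraries 3 and 4 left out together. Exonic overlaps and transcript starts came from GENCODE on GRCm38, promoters from RefSeq.

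The 8 members and the gene lists were chosen with earlier results of these data known. All members are named. From each list up to 4 called genes with the smallest p were named, and likeness used genes with a mean of at least 5 CPM and no predicted symbol. Some marker results are not reported here.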

Additional observations from a re-analysis of the deposited data

Results flagged for a closer look

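Among 24 groups of 4 libraries (8 genes in 3 groups of experiment 2), 2 held 1 library far from the other three by Dixon's test, which chance does in about 1 in 20 groups. Slc30a1 in EV_RIP library 1 stood at 18.9 CPM, below the others at 22.5 to 23.2 CPM, with a gap of 0.8294 of the group's range, just past the critical value. EV_RIP library 1 also had the lowest mitochondrial share of counts of all libraries, 0.587%. The share was 2.34%, 3.87% and 3.98% in EV_RIP libraries 2 to 4, and its part in these results was not tested. Slc30a8 in positive library 1 stood at 265 CPM, above the others at 175 to 186 CPM, with a gap of 0.869 of the range. That library was still below the lowest EV_RIP library, at 278 CPM.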

How the results depend on the processing

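The 5 member calls in shSmndc1 and the 4 in each sorted group held with DESeq2 size factors, in DESeq2, without the filter and with the replicate block, and Slc30a7 in positive cells was gained in DESeq2. Counts over all genes moved more. In shSmndc1, DESeq2 called 2027 genes higher, and dropping the filter gave 2024 higher and 2141 lower. In the libraries labelled negative, DESeq2 gave 1619 lower and no filter 1700 lower. Between positive and negative cells, DESeq2 gave 107 higher and 205 lower, and no filter 39 and 111. For the difference between experiments, DESeq2 and no filter gave 4 higher and 1 lower each. The cause was not tested.

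The replicate block has some basis in the correlations only between positive and negative cells. With it, 2508 genes were higher and 2571 lower in positive cells, and 2421 and 2176 in the libraries labelled negative. For the difference between experiments, 1 gene was lower. Between positive and negative cells the block gave 22 higher and 56 lower over 12 libraries, and 667 and 850 over the 8 sorted ones, where Mt1 turned to 0.024. It changed no member call.

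Without negative libraries 3 and 4 together, 4 genes were higher and 0 lower in the libraries labelled negative, with 1 member higher and 0 lower. Mt1 (1.45, adjusted p = 0.163 by edgeR), Mtf1 (0.46, adjusted p = 0.230) and Slc30a8 (−0.61, adjusted p = 0.366) lost their calls. Mt3 turned to −0.011. Between positive and negative cells Mt1 turned to 0.10, Mtf1 to 0.036, Slc30a1 to 0.032 and Slc30a8 to −0.27. In a separate fit, with all libraries kept and no filter on low counts, Mt3 stood at −0.037 in the libraries labelled negative.

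With 1 library left out, 71 to 1547 genes were higher and 110 to 1789 lower in shSmndc1, with 2 to 5 members higher and 0 to 1 lower. The ranges were 646 to 1811 and 612 to 1775 in positive cells, with 2 to 3 and 0 to 1 members, and 127 to 3036 and 32 to 2795 in the libraries labelled negative, with 1 to 4 and 0 to 1 members. Between positive and negative cells they were 0 to 220 and 0 to 297. The fewest calls in shSmndc1 came without EV library 3 and in the libraries labelled negative without negative library 4. Values that changed sign were those of uncalled members. Mt3 ran from −0.51 to 0.23 in shSmndc1 and from −0.26 to 0.20 in the libraries labelled negative. Slc30a1 ran from −0.15 to 0.064 for the difference between experiments. Between positive and negative cells Mt1 ran from −0.25 to 0.15, Slc30a5 from −0.19 to 0.022 and Slc30a8 from −0.14 to 0.43. Depth limits Mt3 most, at 2 to 56 reads a library.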
